A study of Rattus norvegicus with 36 samples.

Results

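Sgk1, Fkbp5 and Nr3c1 are 3 genes of the glucocorticoid stress-hormone system, and their messenger RNA was followed in the nucleus accumbens of rats conditioned with cocaine. They were chosen by name, as the gene IDs ENSRNOG00000011815 (Sgk1), ENSRNOG00000022523 (Fkbp5) and ENSRNOG00000014096 (Nr3c1), out of 31546 IDs in the count tables, and all 3 were present. The tables pair no ID with a gene name and the RefSeq table used here paired 0 of them, so the names rest on the choice of IDs and were not checked. The 9 animals were Sprague-Dawley rats aged 8 weeks, 3 in each of 3 groups. Vulnerable and Non Vulnerable rats were both labelled with 4 cocaine injections, given intraperitoneally at 20 mg/kg, and Saline rats with 4 injections of physiological serum. Conditioned place preference alternated saline and drug between compartments in sessions of 20 min set 6 h apart, and Saline rats went through the same alternation. The series separates cocaine rats that did or did not express the preference. No sample label ties Vulnerable to either outcome, and the phenotype labels are used here as given. The sources used here do not give the delay from the preference test to tissue collection. The tissue label is nucleus accumbens, while the extraction text also mentions caudate putamen. Neither this label nor the makeup of cell types could be checked against marker genes, because the markers have no ID here. In tissue RNA, a lower level from fewer cells of a type cannot be told apart from less RNA per cell.

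Corticosterone, the main glucocorticoid of rats, binds the glucocorticoid receptor, a transcription factor encoded by Nr3c1 that rests in the cytoplasm with HSP90 chaperones and moves to the nucleus when bound. Fkbp5 encodes FKBP51, a co-chaperone of that complex which lowers the receptor's affinity for hormone, and the receptor induces Fkbp5, which closes a short feedback loop. Sgk1 encodes a serine/threonine kinase that regulates ion channels and transporters; it is induced by glucocorticoids and also by other signals. Both target genes are widely used as readouts of receptor activity in brain, and cocaine is known to raise circulating corticosterone.

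The receptor binds DNA as a dimer, at a palindrome whose arms are AGAACA and TGTTCT. Sequence upstream of the 2 target genes is shown because the level of their RNA is the readout here. RefSeq (assembly GRCr8; the sources used here do not give the build of the counts) held 6 annotated starts for the 3 genes, 3 of them for Sgk1, and the 250 bases before each start were searched on both strands. Capitals mark the GC box (GGGCGG or CCGCCC) and the TATA box (TATAAA or TTTATA). The first line is before the Sgk1 start whose TATA box lies at bases -33 to -28, minus strand of chr1:24804832-24805081, and the next is before the Fkbp5 start, minus strand of chr20:6543556-6543805.
Sgk1: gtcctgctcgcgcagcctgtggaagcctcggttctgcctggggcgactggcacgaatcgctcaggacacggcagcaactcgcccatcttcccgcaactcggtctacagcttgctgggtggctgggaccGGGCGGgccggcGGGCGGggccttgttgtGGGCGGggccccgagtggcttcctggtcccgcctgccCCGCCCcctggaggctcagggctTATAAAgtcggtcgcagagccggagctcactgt
Fkbp5: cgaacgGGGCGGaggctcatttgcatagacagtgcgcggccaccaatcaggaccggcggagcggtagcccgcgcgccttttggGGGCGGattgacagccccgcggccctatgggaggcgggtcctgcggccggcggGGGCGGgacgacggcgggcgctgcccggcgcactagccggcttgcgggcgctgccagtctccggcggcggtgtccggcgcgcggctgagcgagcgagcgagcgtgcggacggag
The Sgk1 window shown held 4 GC boxes and a TATA box, and the Fkbp5 window 3 GC boxes and no TATA box. Before another Sgk1 start lay a TATA box, at bases -55 to -50, and no GC box. Before the remaining Sgk1 start lay GC boxes and no TATA box. Of the 6 windows, 5 held a GC box and 2 a TATA box. A GC box was found in 30.5% and a TATA box in 12.9% of 33469 windows of this length over all genes. The palindrome, AGAACA followed by any 3 bases and TGTTCT, was in 0 of the 6 windows and in 4 of the 33469. An arm alone, TGTTCT or AGAACA, which is also a part of the palindrome, was in 0 of the 6 and in 17.5% of all windows. These letters are missing from these windows only, and the counts, which are per gene, do not tell which start was used.

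Each rat was sequenced in 4 technical replicate libraries of 10160424 to 16297870 counts, and no libraries were identical. Within a rat the libraries agreed on all 3 genes to within sampling noise. The chi-square per degree of freedom over a rat's 4 libraries ran from 0.167 to 1.96 in the 27 combinations of gene and rat, and its smallest p was 0.118. Between rats of a group it ran from 52.8 for Nr3c1 to 1206 for Sgk1. The 4 libraries were therefore summed, which gave 41213813 to 64081679 counts per rat and n = 3 per group. Over all genes, the axis of largest variance in log2 CPM (principal component 1, 40.2% of the variance) ordered the 3 groups without overlap. Vulnerable rats scored lowest, from -34.21 to -21.65, and Non Vulnerable rats 2 and 3 highest, at 46.9 and 58.5. Non Vulnerable rat 1, at 7.51, lay nearer to the Saline rats (-10.1 to -7.30) than to its own group. In that rat 18.2% of counts fell on the 10 most counted genes, against 10.5% to 13.3% in the others. Levels below are CPM, read counts relative to library size after TMM scaling (trimmed mean of M values), so a level compares rats for 1 gene and not genes of different length.

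The receptor gene Nr3c1 was the steadiest of the 3, and its group means lay closest together. Vulnerable rats 1 to 3 stood at 108.4, 100 and 96.2 CPM, Saline rats at 117, 114.6 and 87.5 CPM, and Non Vulnerable rats at 128.7, 110 and 96.8 CPM. The groups overlapped in every comparison, and the highest and the lowest of the 9 rats, Non Vulnerable rat 1 and Saline rat 3, differed 1.47-fold. Saline rats averaged 106 ± 16.4 CPM, Non Vulnerable rats 112 ± 16 CPM and Vulnerable rats 102 ± 6.25 CPM (SD, n = 3).

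Fkbp5, the feedback co-chaperone, was spread over a wider range inside the groups than between them. Saline rat 3 had the highest level of all rats, 84.3 CPM, while Saline rats 1 and 2 had 45.6 and 47.6 CPM. Vulnerable rats had 48.8, 81.5 and 70 CPM. Non Vulnerable rats had 66.3, 50.4 and 43.7 CPM, the last of these the lowest of the 9 rats. Each group thus held rats from the lower and the upper part of the range, and the groups overlapped in every comparison. Saline rats averaged 59.1 ± 21.8 CPM, Non Vulnerable rats 53.5 ± 11.6 CPM and Vulnerable rats 66.8 ± 16.6 CPM (SD, n = 3).

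Sgk1, the kinase gene, was the one member whose groups separated in a comparison. That comparison was Non Vulnerable against Saline rats, whose levels did not overlap for 35% of all genes, and for 17.4% with Non Vulnerable rats higher. Non Vulnerable rats 1 to 3 stood at 222.6, 322.4 and 253.3 CPM (10060, 15729 and 10235 counts), all above the Saline rats at 119.5, 110.8 and 191.5 CPM (6040, 4624 and 8894 counts). Vulnerable rats, at 116, 191 and 244.5 CPM (5981, 9723 and 16372 counts), ran from the level of the lower Saline rats to above Non Vulnerable rat 1 and so overlapped both groups. Saline rats averaged 141 ± 44.3 CPM, Vulnerable rats 184 ± 64.6 CPM and Non Vulnerable rats 266 ± 51.1 CPM (SD, n = 3). With plain library totals in place of TMM, a scaling added after the data were seen, Non Vulnerable rat 1 and Saline rat 3 came to 200.6 and 200 CPM. The separation between these groups was then as narrow as that gap.

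**Figure D1:**
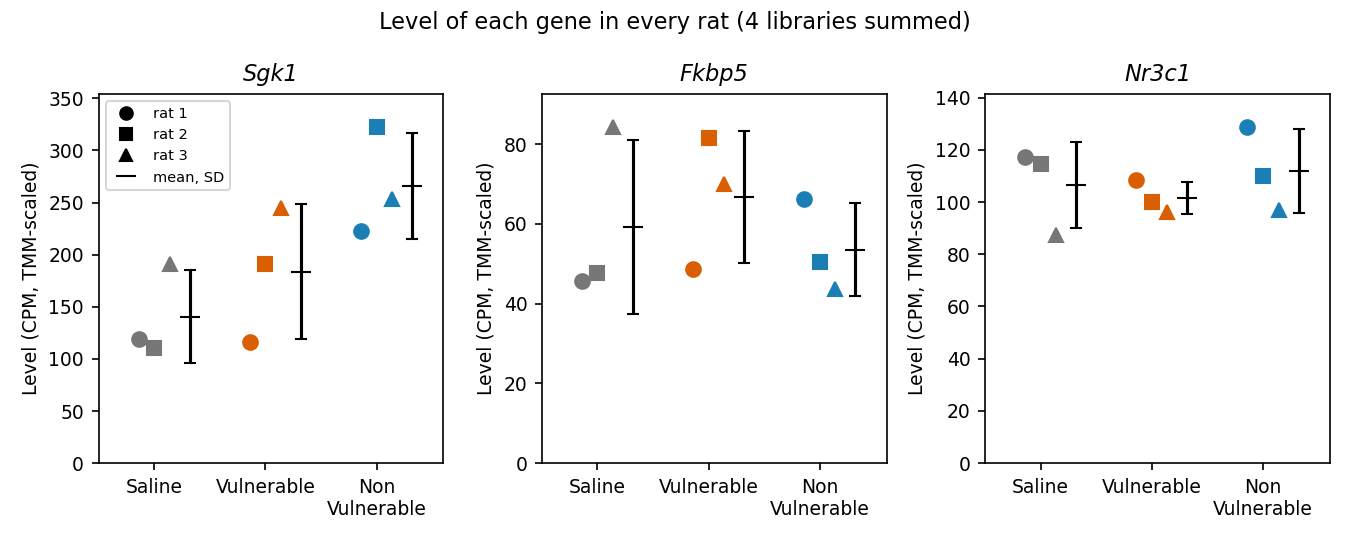
Level of Sgk1, Fkbp5 and Nr3c1 (vertical axes, CPM with TMM scaling, starting at 0) in each rat of the Saline, Vulnerable and Non Vulnerable groups, with symbols for rats 1 to 3 and the mean and SD of 3 rats beside them. For Sgk1 the Non Vulnerable rats, at 222.6 to 322.4 CPM, lie above the Saline rats, at 110.8 to 191.5 CPM. Non Vulnerable and Saline rats do not overlap for 35% of all genes. The groups overlap for Fkbp5 and Nr3c1.

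The comparison of Non Vulnerable with Saline rats asks what differed in rats of this phenotype from rats that received no cocaine; cocaine and the selection by phenotype cannot be told apart in it. Sgk1 was 1.89-fold higher in Non Vulnerable rats, with a log2 fold change of 0.92 (SE 0.295, 95% interval 0.25 to 1.59), but did not pass the threshold (edgeR adjusted p = 0.0669). Fkbp5 had a log2 fold change of -0.14 (SE 0.276, interval -0.77 to 0.48, edgeR adjusted p = 0.754). Nr3c1 had 0.07 (SE 0.135, interval -0.23 to 0.38, edgeR adjusted p = 0.746). Of the 3 genes, edgeR and limma voom called 0 and DESeq2 called 1, Sgk1 (adjusted p = 0.0138). Over all 16029 genes tested, edgeR called 14.7%, and 6.81% with Non Vulnerable rats higher, while DESeq2 called 3747 genes and limma voom 2167. At an unadjusted p under 0.05 edgeR listed 1 of the 3, Sgk1, and 5244 of the 16029 genes, a like share. Non-overlapping groups, as Sgk1 had, were found for 35% of all genes, and for 17.4% with the Non Vulnerable rats higher.

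The size of the Sgk1 difference was above that of most genes, and so was its error. By absolute log2 fold change it ranked 747 of 16029, while by p it ranked 2992, below the 2351 genes called. Its SE of 0.295 compares with a median of 0.144 over all genes in this comparison. An exact two-sided permutation test of the 3 Non Vulnerable against the 3 Saline values gave p = 0.1, the smallest that this design allows. The log2 fold change was 0.87 without Vulnerable rat 1 (edgeR adjusted p = 0.0485) and 1.19 without Saline rat 3 (edgeR adjusted p = 0.0423), and Sgk1 was called in both. Vulnerable rat 1 is in neither compared group, so leaving it out acted only through the shared filter, scaling and estimate of spread. Without Vulnerable rat 3 the value was also 0.87, and Sgk1 was not called (edgeR adjusted p = 0.0852). Without Non Vulnerable rat 1, the rat that lay nearer to Saline, the log2 fold change was 1.01 (edgeR adjusted p = 0.0593). Leaving out Saline rat 1, Saline rat 2 or Non Vulnerable rat 2 brought it to 0.76, 0.78 and 0.76, with edgeR adjusted p of 0.209, 0.21 and 0.192. The number of genes called over the whole table also fell in these fits, from 2351 with all rats to 952, 251 and 490. It was 2140 without Vulnerable rat 1, 1929 without Saline rat 3 and 3615 without Non Vulnerable rat 1. The direction of the Sgk1 difference was kept in all settings tried.

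**Figure D2:**
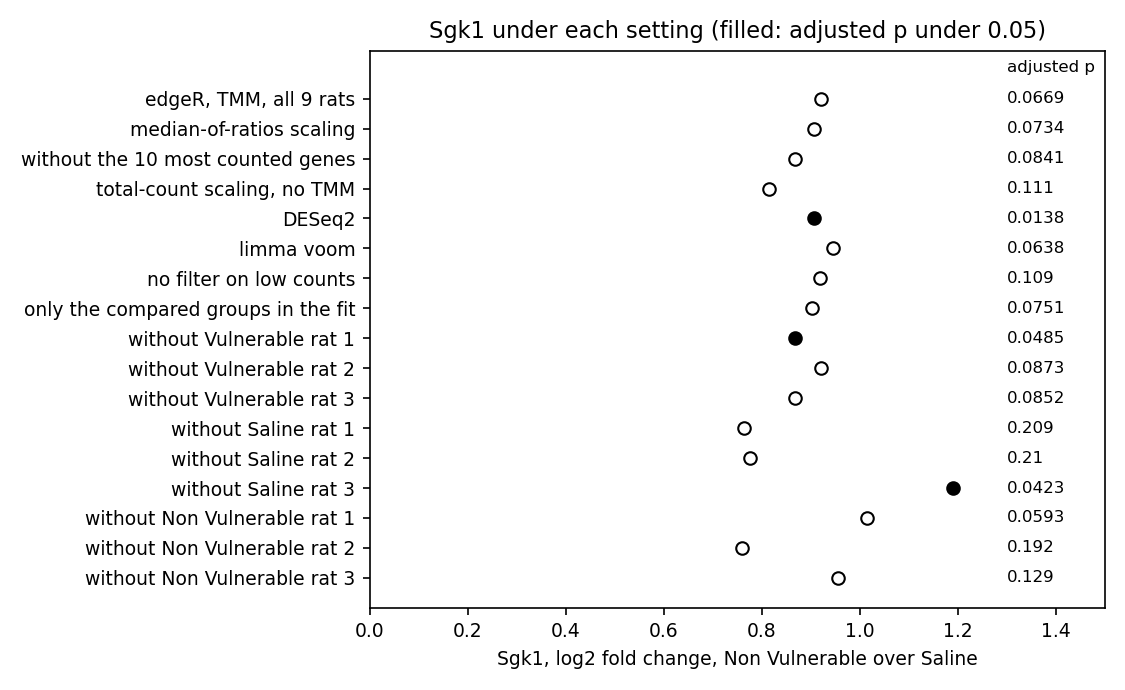
Log2 fold change of Sgk1 in Non Vulnerable over Saline rats (horizontal axis) for edgeR with all 9 rats, 7 changes of scaling, tool, filter or samples, and 9 fits with a rat left out (vertical axis), with the adjusted p at the right. Filled points, for DESeq2, without Vulnerable rat 1 and without Saline rat 3, have an adjusted p under 0.05, and all points lie between 0.76 and 1.19. A further fit with a block for rat number, at 0.95 (edgeR adjusted p = 0.0364), is not drawn.

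For Fkbp5 and Nr3c1 the same comparison turned on single rats. Without Saline rat 3, the Saline rat of highest Fkbp5 and lowest Nr3c1, the log2 fold change of Fkbp5 went from -0.14 to 0.18 and that of Nr3c1 from 0.07 to -0.067. Nr3c1 also turned to -0.057 without Non Vulnerable rat 1 and to -0.036 with library totals. None of these values passed the threshold (edgeR adjusted p of 0.647 to 0.878).

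Vulnerable rats were set against Non Vulnerable rats to ask what differed between rats with the same cocaine schedule. Here 31.5% of all genes were called by edgeR, 15.1% with Vulnerable rats higher, and 0 of the 3 members. The groups did not overlap for 46.7% of all genes and for 0 of the members. At an unadjusted p under 0.05 it listed 0 of them and 7255 of the 16029 genes. DESeq2 and limma voom called 6065 and 4873 genes, and also 0 of the members. Sgk1 was lower in Vulnerable rats by a log2 fold change of -0.53 (1.45-fold, SE 0.293, interval -1.20 to 0.13, edgeR adjusted p = 0.187). Vulnerable rat 3, at 244.5 CPM, overlapped the Non Vulnerable rats, and without it the value was -0.75 (edgeR adjusted p = 0.118). Without Vulnerable rat 1, the lowest of its group, the value was -0.24 (edgeR adjusted p = 0.526). Fkbp5 lay in the opposite direction, at 0.32 (1.25-fold higher in Vulnerable rats, SE 0.276, interval -0.30 to 0.94, edgeR adjusted p = 0.395). It moved with single rats: leaving out Vulnerable rat 2 gave 0.15 and Non Vulnerable rat 3 gave 0.19, while leaving out rat 1 of the Vulnerable or of the Non Vulnerable group gave 0.55 or 0.52. Nr3c1 had -0.14 (SE 0.135, interval -0.44 to 0.16, edgeR adjusted p = 0.447). It was -0.0095 without Non Vulnerable rat 1, -0.062 without Vulnerable rat 3, -0.011 with library totals and -0.23 without Non Vulnerable rat 3. With all rats and TMM scaling, the interval for Nr3c1 bounds the difference to between 0.735 and 1.12 of the Non Vulnerable level, while those of the target genes leave room for differences over 1.5-fold.

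Vulnerable and Saline rats were compared last, and both cocaine comparisons with Saline share the Saline rats. The log2 fold change of Sgk1 was 0.39 (1.31-fold higher in Vulnerable rats, SE 0.293, interval -0.28 to 1.05, edgeR adjusted p = 0.908). Fkbp5 had 0.18 (SE 0.275, interval -0.45 to 0.80, edgeR adjusted p = 0.939). Nr3c1 had -0.07 (SE 0.135, interval -0.37 to 0.24, edgeR adjusted p = 0.956). The groups did not overlap for 11.9% of all genes, 6.76% with Vulnerable rats higher, and for 0 of the members. In this comparison edgeR called 0% of all genes, limma voom 0 genes and DESeq2 30, and 807 genes had an unadjusted edgeR p under 0.05. Of the 3 members, 0 were called by edgeR, limma voom or DESeq2, and 0 had an unadjusted edgeR p under 0.05. Saline rat 3 weighed on both target genes. Without it the log2 fold changes were 0.71 for Sgk1 and 0.55 for Fkbp5 (edgeR adjusted p of 0.518 and 0.538). Without Vulnerable rat 3 that of Sgk1 was 0.12 (edgeR adjusted p = 0.977), and without Vulnerable rat 2 that of Fkbp5 was 0.0073 (edgeR adjusted p = 0.9998).

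In the test of the 3 groups at once, edgeR called 21.3% of all genes and 0 of the 3 members, of which 1, Sgk1, had an unadjusted p under 0.05, as did 6001 of the 16029 genes. The edgeR adjusted p was 0.104 for Sgk1, 0.666 for Fkbp5 and 0.722 for Nr3c1. The exact permutation test over the 1680 assignments of 9 rats to 3 groups gave unadjusted p = 0.0821, 0.582 and 0.7, where the smallest p it allows is 0.00357.

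**Figure D3:**
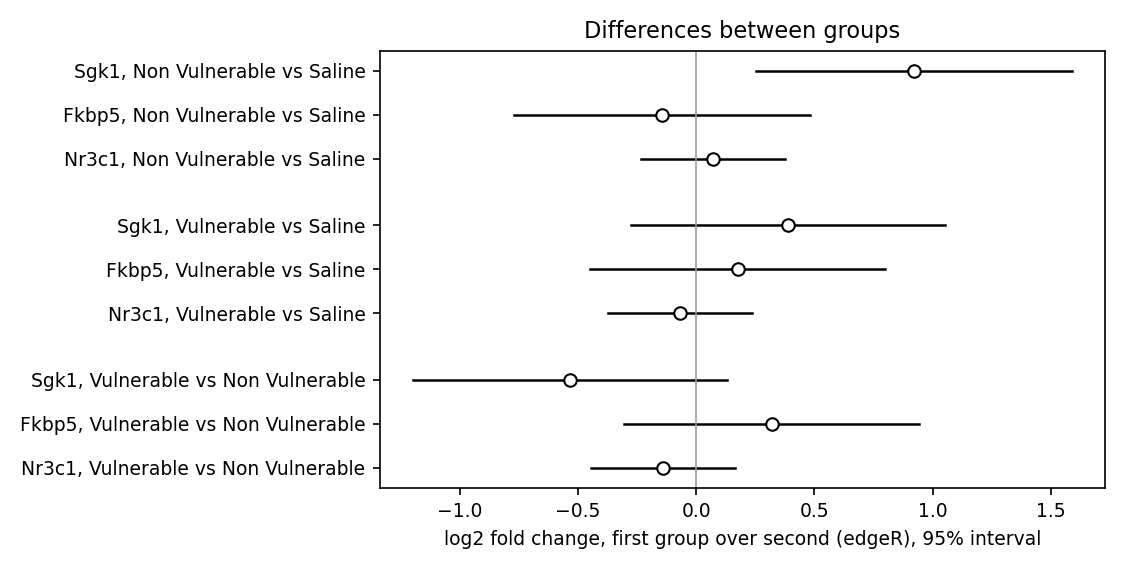
Log2 fold change (points, horizontal axis) with its 95% interval (lines) from edgeR for Sgk1, Fkbp5 and Nr3c1 in the 3 comparisons (vertical axis). The interval of Sgk1 in Non Vulnerable over Saline rats, 0.25 to 1.59, is the one that does not reach 0, and the intervals of Nr3c1 are the narrowest.

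The ratio of 2 genes' counts within a rat does not depend on how libraries are scaled, so the balance between the 2 target genes was also read that way, a measure chosen after the data were seen. Saline rats had 2.62, 2.33 and 2.27 reads of Sgk1 per read of Fkbp5. Vulnerable rats had 2.38, 2.34 and 3.49, and Non Vulnerable rats 3.36, 6.39 and 5.80. All Non Vulnerable rats were above all Saline rats, with means of 5.18 ± 1.61 and 2.41 ± 0.187 (SD, n = 3), whereas Vulnerable rat 3 exceeded Non Vulnerable rat 1. Levels of Sgk1 alone already separated these groups, as did those of 35% of all genes, so the ratio is not independent of that result. The share of gene pairs whose ratio separates the groups was not computed. On the log2 scale Non Vulnerable rats differed from Saline rats by 1.05, or 2.08-fold, with an exact two-sided permutation p = 0.1, the smallest possible for 3 rats against 3. Over all 3 groups the exact permutation p was 0.0536. Saline rat 3, which was high for both target genes, had a Sgk1 to Fkbp5 ratio like that of the other Saline rats. The ratio was therefore steadier among Saline rats, from 2.27 to 2.62, than either gene, which varied 1.73-fold (Sgk1) and 1.85-fold (Fkbp5) among them. Among Vulnerable rats the ratio, from 2.34 to 3.49, also varied less than Sgk1 (2.11-fold) and Fkbp5 (1.67-fold). Among Non Vulnerable rats it varied more, from 3.36 to 6.39, than Sgk1 (1.45-fold) and Fkbp5 (1.52-fold).

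Against the receptor, the ratios of both target genes overlapped between groups. Sgk1 per read of Nr3c1 was 1.02, 0.967 and 2.19 in Saline, 1.07, 1.91 and 2.54 in Vulnerable and 1.73, 2.93 and 2.62 in Non Vulnerable rats. Fkbp5 per read of Nr3c1 was 0.389, 0.415 and 0.963 in Saline and 0.45, 0.815 and 0.728 in Vulnerable rats. In Non Vulnerable rats it was 0.515, 0.458 and 0.451, all below the highest rats of the other groups and above the lowest. The exact permutation p over the 3 groups was 0.271 for Sgk1 and 0.654 for Fkbp5.

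**Figure D4:**
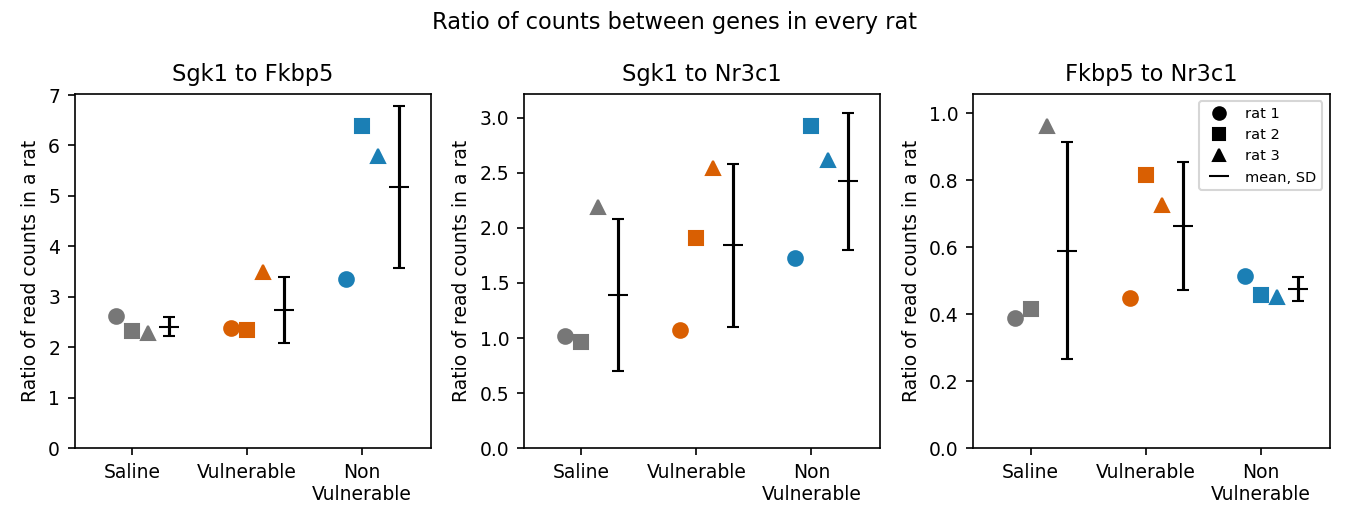
Ratio of read counts between pairs of the 3 genes (vertical axes, starting at 0) in each rat of the Saline, Vulnerable and Non Vulnerable groups, with the mean and SD of 3 rats. Sgk1 to Fkbp5 lies between 2.27 and 2.62 in Saline rats and between 3.36 and 6.39 in Non Vulnerable rats, and the other ratios overlap between groups.

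Both target genes belonged to the genes that varied most from rat to rat. The SD of log2 CPM within groups (6 degrees of freedom) was 0.431 for Sgk1 and 0.401 for Fkbp5, higher than in 96.6% and 95.8% of the 9997 genes with a mean of at least 10 CPM, whose median was 0.126. For Nr3c1 it was 0.187, higher than in 72.9% of them. This description was chosen after the values were seen and has no test. Between the 4 libraries of a rat the lowest and the highest CPM differed by at most 7.26% for Sgk1 and 13% for Fkbp5. The sample descriptions call them technical replicates and do not name the step that was repeated. The spread between rats was therefore not split into biological and technical parts.

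Inside the Saline and Vulnerable groups, rats above their group mean in one target gene were above it in the other. These rats were below it in the receptor, though Vulnerable rats 2 and 3 only slightly. Saline rat 3 was 0.49 above its group mean in log2 CPM for Sgk1, 0.57 above it for Fkbp5 and 0.27 below it for Nr3c1 (-0.27). Vulnerable rat 1 showed the reverse, with deviations of -0.60 for Sgk1, -0.42 for Fkbp5 and 0.10 for Nr3c1. In Vulnerable rat 3 they were 0.48, 0.10 and -0.08, and in Vulnerable rat 2 they were 0.12, 0.32 and -0.02. The 4 libraries of Vulnerable rat 2 differed by up to 5.92% in CPM of Nr3c1. The Non Vulnerable rats did not follow this order. Rat 1 deviated by -0.24 for Sgk1, 0.33 for Fkbp5 and 0.21 for Nr3c1, and rat 2 by 0.29, -0.06 and -0.01. In 7 of 9 rats Sgk1 and Fkbp5 lay on the same side of their group means, and in 1 of 9 Sgk1 and Nr3c1 did.

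**Figure D5:**
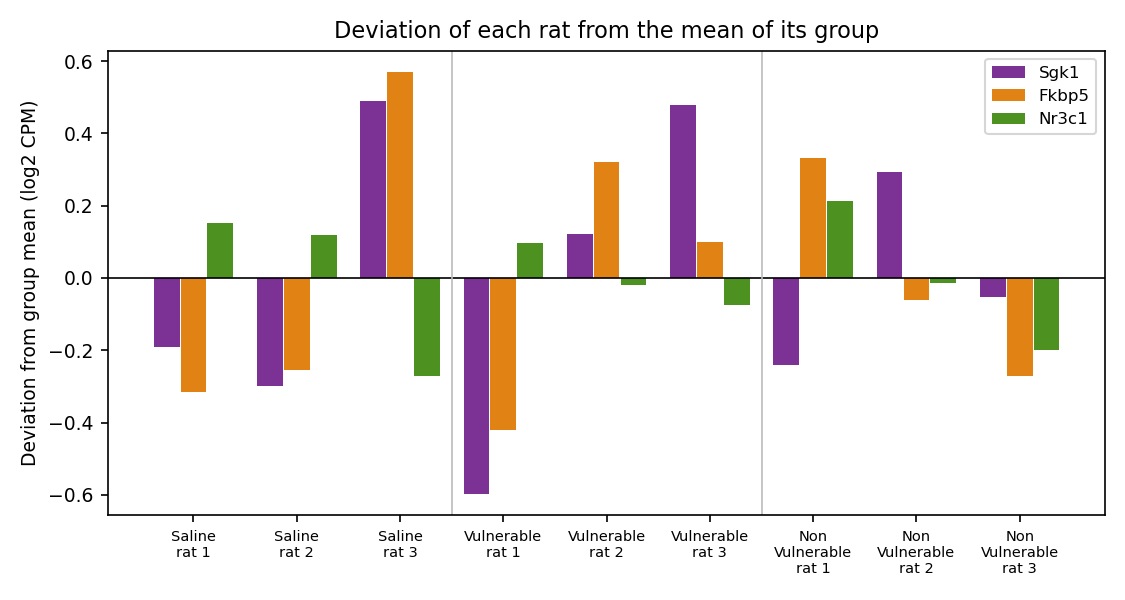
Deviation of each rat from the mean of its own group in log2 CPM (vertical axis) for Sgk1, Fkbp5 and Nr3c1, with the 9 rats ordered by group (horizontal axis). In Saline and Vulnerable rats the bars of Sgk1 and Fkbp5 point the same way and the bar of Nr3c1 the other way. The Nr3c1 bar is short in Vulnerable rats 2 and 3, at -0.02 and -0.08. Non Vulnerable rat 1 has Fkbp5 and Nr3c1 up and Sgk1 down.

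As a description, the correlation of these deviations was 0.65 for Sgk1 with Fkbp5, -0.70 for Sgk1 with Nr3c1 and -0.36 for Fkbp5 with Nr3c1; deviations of 3 rats from their own mean are not independent, and all 3 genes share the rats' libraries and scaling. With a rat left out they ran from 0.42 to 0.87, from -0.86 to -0.50 and from -0.79 to 0.32. The value of 0.32 for Fkbp5 with Nr3c1 came without Saline rat 3, so the sign of that relation rested on that rat. Over the 9 rats with groups ignored, none of the 3 relations tested passed the threshold. Sgk1 with Fkbp5 had Pearson r = 0.278 (exact permutation p = 0.46, adjusted 0.47) and Spearman rho = 0.117 (exact permutation p = 0.776, adjusted 0.776). Sgk1 with Nr3c1 had r = -0.274 (exact permutation p = 0.47, adjusted 0.47) and rho = -0.283 (exact permutation p = 0.463, adjusted 0.694). Fkbp5 with Nr3c1 had r = -0.432 (exact permutation p = 0.245, adjusted 0.47) and rho = -0.433 (exact permutation p = 0.25, adjusted 0.694). Without the 2 rats farthest from the median of the first gene, r was 0.376, -0.328 and 0.0844 for the 3 pairs, with exact permutation p of 0.386, 0.461 and 0.866.

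Many genes had a pattern over the 9 rats closer to each member's than the other members had. Among 13726 other genes with a mean of at least 1 CPM, Fkbp5 ranked 5061 in likeness to Sgk1 by Pearson r of log2 CPM over the 9 rats. By the correlation of deviations from group means, 0.65, it stood higher with Sgk1 than 93.2% of those genes did. Nr3c1 stood at -0.70 with Sgk1, where 8.14% of genes had a lower value. At -0.36 with Fkbp5, 29.6% of genes were lower than Nr3c1. Counted among the correlations with Nr3c1, the shares below Sgk1 and Fkbp5 were 14.3% and 32.3%. The gene most like Sgk1 was ENSRNOG00000046390 (r = 0.949), with 12.3 CPM in Saline rat 1 and 15.7 CPM in Vulnerable rat 3 as its lowest and highest values. The gene most like Fkbp5 was ENSRNOG00000039832 (r = 0.961), which ran from 8.39 CPM in Saline rat 2 to 15.8 CPM in Vulnerable rat 2. The gene most like Nr3c1 was ENSRNOG00000009856 (r = 0.989), from 41.7 CPM in Saline rat 3 to 65.9 CPM in Non Vulnerable rat 1. Each is the highest of 13726 values over 9 rats and has no test. An r above 0.9 was reached by 27 genes with Sgk1, 25 with Fkbp5 and 55 with Nr3c1, and an r below -0.9 by 34, 17 and 17 genes.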

How the data were processed

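RNA was polyA-selected and made into strand-specific libraries, per the labels' protocols. Tools named in the submitters' processing notes are bcl2fastq 2.17.1.14, STAR and HTSeq 0.5.3; genome build, annotation and strand setting were not given in the sources used here. For each of 36 libraries the authors deposited raw counts of reads by Ensembl gene ID. Counts of the 4 technical replicates were summed per rat. edgeR 4.0.16 (R 4.3.3) kept genes by filterByExpr (16029), scaled by TMM, and fitted glmQLFit (robust) over all 9 rats with 6 residual degrees of freedom; calls had a Benjamini-Hochberg adjusted p under 0.05 across the whole table. SE came from the F statistic; the prior count for log2 CPM was 2. DESeq2 1.42.0, limma 3.58.1 (voom), median-of-ratios scaling, no filter, no 10 most counted genes, compared groups only, a block for rat number and fits without each rat were alternatives; library totals were added after seeing the data. The fit was also run on simulated counts with few changed genes, unlike these data, and no result here rests on that run. Named genes were the 3 members and, for each, the most correlated gene of at least 1 CPM. Members and lists were chosen with earlier results of these data known. Lists of 30 glucocorticoid targets, 20 receptor partners and 44 cell type markers were void, since 0 of their symbols beyond the members had an ID.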

Additional observations from a re-analysis of the deposited data

How the results depend on the processing

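Of the 9 differences of Sgk1, Fkbp5 and Nr3c1 between groups, none was called with all 9 rats in edgeR. Sgk1 in Non Vulnerable over Saline rats was the one called under any alternative, in 4 of 17: log2 0.91 in DESeq2, 0.95 with the replicate block, and without Vulnerable rat 1 or Saline rat 3. Vulnerable rat 1 is in neither of these groups. With a rat left out the Sgk1 value ran from 0.76 to 1.19. Reversed signs were 0.18 for Fkbp5 in this comparison without Saline rat 3; for Nr3c1 -0.036 with library totals, -0.067 without Saline rat 3 and -0.057 without Non Vulnerable rat 1; and 0.0038 for Nr3c1 in Vulnerable over Saline rats without Saline rat 1. The cause was not tested. With a rat left out, Fkbp5 and Nr3c1 in Non Vulnerable over Saline rats ran from -0.35 to 0.18 and from -0.067 to 0.17, and Nr3c1 in Vulnerable over Saline rats from -0.16 to 0.0038. The number of genes called in Non Vulnerable against Saline rats, 2351, was 3747 in DESeq2, 1164 with only these groups in the fit, and 251 to 3615 with a rat left out. For Vulnerable against Non Vulnerable rats, 5050 became 2798 to 5841 with a rat left out, and for Vulnerable against Saline rats 0 became 1 with library totals and 30 in DESeq2.

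The labels give rat numbers only within a group and do not say whether equal numbers mark pairs. Deviations from group means of the 9 same-numbered pairs correlated at -0.137 to 0.19, 2 of them above 0.1. Pairs of unlike number ran from -0.239 to 0.191, and 2 of 9 rats were most alike to a rat of their own number. With 3 rats per group these values cannot settle whether rats were paired. With the replicate block 5160, 2453 and 0 genes were called for Vulnerable against Non Vulnerable, Non Vulnerable against Saline and Vulnerable against Saline rats, and Sgk1 had an edgeR adjusted p of 0.0364 in Non Vulnerable over Saline rats. Each of the 3 genes had at least 1765 counts in every rat, and 3 rats per group limit the precision of every difference.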
